A study of Mus musculus with 12 samples.

Results

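Receptor genes for serotonin, dopamine, noradrenaline, acetylcholine and histamine were followed through 12 hippocampal poly(A) RNA-seq libraries. The list was given by name and holds 37 genes, with 12 serotonin, 5 dopamine, 7 adrenergic, 5 muscarinic, 5 nicotinic and 3 histamine receptor genes. Of these, 36 had more than 20 reads in total and were tested among the 22592 genes that passed the same filter, and *Drd3*, with 9 reads in total, was not tested. The libraries came from male mice on a C57B/L6 background, either constitutive *Fmr1* knockouts (KO), a model of fragile X syndrome, or wild-type littermates (WT). At 2 months of age the mice began a course of 5 intraperitoneal injections of vehicle (Veh) or of Nutlin-3 (Nut3) at 10 mg/kg, an inhibitor of the binding of MDM2 to p53, and hippocampi were collected at 6 months. The KO-Nut3, KO-Veh, WT-Nut3 and WT-Veh groups had 3 libraries each, described as biological replicates and named here by the RH numbers of the labels, and values by library are listed in the order RH2, RH5, RH15 (WT-Veh), RH1, RH9, RH14 (WT-Nut3), RH7, RH10, RH16 (KO-Veh), RH6, RH8, RH13 (KO-Nut3). The sources used here do not say whether these mice carried a reporter transgene. Reads on genes ranged from 17150820 in WT-Veh RH2 to 20040482 in WT-Nut3 RH9. Whole tissue was sequenced, so fewer cells of a type and less RNA per cell cannot be told apart.

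Monoamine and most acetylcholine inputs reach the hippocampus through long axons from cell bodies elsewhere, and the receptors listed here are how hippocampal cells read them. Most couple to G proteins. Those that act through Gs raise cyclic AMP, those that act through Gi lower it and open potassium channels, and those that act through Gq release calcium from internal stores. The nicotinic subunits and the serotonin 3A subunit instead form channels that the transmitter opens. In the hippocampus these receptors set excitability and plasticity, and several of them act on adult neurogenesis in the dentate gyrus.

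The genotype labels were checked first. *Fmr1* had 79.5, 75.3 and 77.7 CPM (WT-Veh), 75.2, 73.97 and 78.3 (WT-Nut3), 32.7, 32.5 and 37.3 (KO-Veh) and 30.6, 28.5 and 35.7 CPM (KO-Nut3), where CPM are read counts scaled to library size with the TMM factors of edgeR. The genotypes did not overlap. Markers of hippocampal neurons were abundant in every library. The 8 dentate granule neuron markers, with *Prox1* the most abundant, summed to 391 to 556 CPM, and the 6 CA1 pyramidal neuron markers, with *Mpped1* the most abundant, to 495 to 748 CPM.

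Features of single libraries bear on the receptors and are given before the results. *Ttr* (transthyretin, the most abundant transcript of choroid plexus epithelium) had 6.39, 9.56 and 5.15 CPM (WT-Veh), 12.9, 4215 and 18.2 (WT-Nut3), 3.15, 11.6 and 15.2 (KO-Veh) and 3091, 314 and 4519.7 CPM (KO-Nut3). WT-Nut3 RH9 and all of KO-Nut3 were thus above the other 8 libraries. The whole list of 16 choroid plexus markers summed to 4838 CPM in WT-Nut3 RH9, to 3615, 393 and 5171 CPM in KO-Nut3 and to 34.4 to 59.6 CPM elsewhere. KO-Nut3 RH6 in addition stood apart in markers of neighbouring brain regions. The 10 thalamus markers, led by *Rora*, summed to 367 CPM there and to 138 to 168 CPM in the other 11 libraries, and 6 of the 10 were highest in it. *Slc17a6*, the vesicular glutamate transporter of subcortical neurons, had 113 CPM in KO-Nut3 RH6 against 8.42 to 22.2 CPM elsewhere. The 9 habenula markers that are not among the listed receptors, led by *Vav2*, summed to 45.6 CPM in it and to 19.8 to 23.5 CPM elsewhere. Of the 9, 4 were highest and 1 was lowest in KO-Nut3 RH6, and *Vav2* itself had 15.2 CPM there against 13.7 to 17.7 CPM elsewhere. Among the 4, *Pou4f1* and *Irx2*, both transcription factors, had 9.26 and 10.1 CPM in KO-Nut3 RH6. They had at most 0.224 and 0.229 CPM in any other library. *Nhlh2* and *Chrnb3* were also highest in KO-Nut3 RH6, by 3.05 and 4.82 CPM there. *Gpr151* (0.832 CPM in KO-Nut3 RH6), *Slc18a3* and *Chrnb4* were, like *Vav2*, within the range of the other 11 libraries. The marker that was lowest in KO-Nut3 RH6 was *Tac2*, at 0.998 CPM. The CA1 markers were lowest in the same library, at 495 CPM against 639.7 to 748 CPM. In the other lists KO-Nut3 RH6 was the highest library for 5 of 8 oligodendrocyte, 5 of 6 blood, 5 of 10 striatum, 4 of 9 neocortex and 6 of 12 interneuron markers, and the lowest for 5 of 8 dentate granule neuron, 5 of 8 microglia, 4 of 9 CA2 and CA3 and the other 6 interneuron markers. It was also the lowest for 1 striatum and 1 neocortex marker. Conversely, it was the highest for 1 dentate granule neuron and 1 CA2 and CA3 marker. Of 8 astrocyte markers, 3 were highest and 2 lowest in it. Among the interneuron markers, *Gad2*, a GABA-synthesizing enzyme, had 275 CPM in KO-Nut3 RH6 against 147 to 181 CPM elsewhere. The 10 striatum markers other than *Drd1* and *Drd2* summed to 198 CPM in it and to 164 to 199 CPM elsewhere. Counts of receptors with a small *P* are therefore also given without KO-Nut3 RH6.

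Levels are compared between genes as CPM per kb of exon (all exons of a gene merged, GENCODE M21). *Chrm1*, the M1 muscarinic receptor of pyramidal and granule neurons, led with a mean of 35.8 CPM per kb over the 12 libraries, followed by *Adra1d* (alpha-1D adrenergic) with 34.5. *Hrh3* (histamine H3, an inhibitory receptor of axon terminals) had 10.7 and *Chrm4* (M4) 10.4 CPM per kb, and these 4 alone had a mean of at least 10 CPM per kb. In all, 30 of the 37 had a mean of at least 1 CPM per kb. In the order of levels, the ranges over 12 libraries overlapped for 35 of 36 neighbouring pairs, the exception being *Adra1d* above *Hrh3*, so that most neighbours in the order did not differ beyond their spread. *Chrna3* reached the range of *Hrh2*, its neighbour above, only in KO-Nut3 RH6 (4.82 CPM of *Chrna3*, against at most 2.14 CPM in the other 11 libraries). The order also depends on the length used. With the longest transcript in place of merged exons, 6 receptors moved by more than 3 places, with *Chrna7* going from 10 to 5, *Htr2c* from 11 to 6, *Adra1a* from 28 to 21, *Chrm4* from 4 to 8, *Adra2c* from 5 to 9 and *Htr1a* from 6 to 10.

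Among the serotonin receptors, *Htr1a*, the main inhibitory serotonin receptor of hippocampal neurons, had a mean of 8.86 CPM per kb, the highest per length of merged exons, while with the longest transcript as length *Htr2c* was higher (11.3 against 8.86 CPM per kb). By library it had 38.7, 34.04 and 45.3 CPM (WT-Veh), 38.3, 37.9 and 47.4 (WT-Nut3), 38.6, 39.5 and 39.9 (KO-Veh) and 35.7, 33.4 and 48.4 CPM (KO-Nut3). The 4 groups overlapped. Per length, *Htr2c* (Gq) followed with 5.91, the channel subunit *Htr3a* with 4.65, the Gs-coupled *Htr4* and *Htr6* with 3.59 and 3.47, *Htr5b* (Gi) with 2.86 and *Htr7* (Gs) with 2.85 CPM per kb. *Htr2a* (Gq) had 2.76, *Htr5a* (Gi) 2.48 and *Htr1b* (Gi, a terminal autoreceptor) 1.73 CPM per kb. *Htr2b* (Gq) and *Htr1d* (Gi) were near the limit of detection, with 43 and 32 reads in total. *Htr2b* had 4, 3 and 3 reads (WT-Veh), 1, 0 and 6 (WT-Nut3), 0, 7 and 2 (KO-Veh) and 3, 12 and 2 reads (KO-Nut3). A count of 3 reads in a library, taken here as the floor, corresponds to 0.149 to 0.179 CPM, a limit for counting error alone.

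The dopamine receptors were all low. *Drd5*, the D1-like receptor that prevails in hippocampus, had the highest level per length with 2.21 CPM per kb, and *Drd2* (D2, Gi) and *Drd1* (D1, Gs) had 1.29 and 1.11. *Drd5* had 9.85, 6.62 and 5.41 CPM (WT-Veh), 5.63, 8.59 and 7.40 (WT-Nut3), 6.56, 7.39 and 6.44 (KO-Veh) and 6.16, 4.87 and 8.57 CPM (KO-Nut3), and the groups overlapped. *Drd4* (Gi) had 1, 10 and 3 reads (WT-Veh), 2, 0 and 0 (WT-Nut3), 4, 4 and 0 (KO-Veh) and 2, 0 and 0 reads (KO-Nut3), at or under the floor in most libraries, and would not have passed the filter on reads without either vehicle group. *Drd3* (Gi) had 0, 0 and 0 reads (WT-Veh), 0, 0 and 0 (WT-Nut3), 4, 1 and 1 (KO-Veh) and 1, 0 and 2 reads (KO-Nut3).

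In the adrenergic set, *Adra1d* (Gq) was followed per length by the Gi-coupled *Adra2c* at 9.76, *Adrb1* (beta-1, Gs) at 7.40 and *Adra2a* (Gi) at 4.39 CPM per kb. *Adra1d* had 77.7, 61.4 and 64.2 CPM (WT-Veh), 66.2, 65.2 and 69.2 (WT-Nut3), 66.6, 69.01 and 66.7 (KO-Veh) and 41.5, 60.7 and 77.9 CPM (KO-Nut3). Its lowest and its highest library were both in KO-Nut3. The other alpha-1 receptors, *Adra1a* and *Adra1b* (both Gq), had 1.17 and 1.04 CPM per kb. *Adra2b* (Gi) had 3, 6 and 4 reads (WT-Veh), 2, 0 and 6 (WT-Nut3), 2, 2 and 10 (KO-Veh) and 17, 5 and 6 reads (KO-Nut3), with the most in KO-Nut3 RH6.

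Below *Chrm1* and *Chrm4* among the muscarinic receptors stood *Chrm3* (M3, Gq) with 8.52, *Chrm5* (M5, Gq) with 1.71 and *Chrm2* (M2, a Gi-coupled autoreceptor of cholinergic terminals) with 1.44 CPM per kb. *Chrm1* had 264, 233 and 229.8 CPM (WT-Veh), 247, 238 and 244 (WT-Nut3), 239.9, 249.8 and 227 (KO-Veh) and 158, 229 and 225 CPM (KO-Nut3), and KO-Nut3 RH6 was the only library below 225 CPM. Among the nicotinic subunits, *Chrnb2* (beta2) had 8.22, *Chrna7* (alpha7) 7.29, *Chrna4* (alpha4, the usual partner of beta2) 4.28, *Chrna5* 1.62 and *Chrna3* 0.332 CPM per kb, and with the longest transcript as length *Chrna7* was above *Chrnb2* (11.7 against 10.8 CPM per kb). *Chrnb2* had 70.2, 71.97 and 67.8 CPM (WT-Veh), 69.7, 67.3 and 65.4 (WT-Nut3), 77.5, 67.7 and 66.4 (KO-Veh) and 68.8, 67.2 and 66.6 CPM (KO-Nut3), with a coefficient of variation of 4.76%. It overlaps *Adar* on the other strand, and the counting did not separate strands. *Hrh1* (H1, Gq) and *Hrh2* (H2, Gs) had 1.28 and 0.994 CPM per kb. *Hrh3* had 31.8, 37.5 and 35.6 CPM (WT-Veh), 31.5, 35.6 and 32.7 (WT-Nut3), 39.4, 35.6 and 36.7 (KO-Veh) and 21.9, 30.9 and 34.4 CPM (KO-Nut3), lowest in KO-Nut3 RH6.

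**Figure D1:**
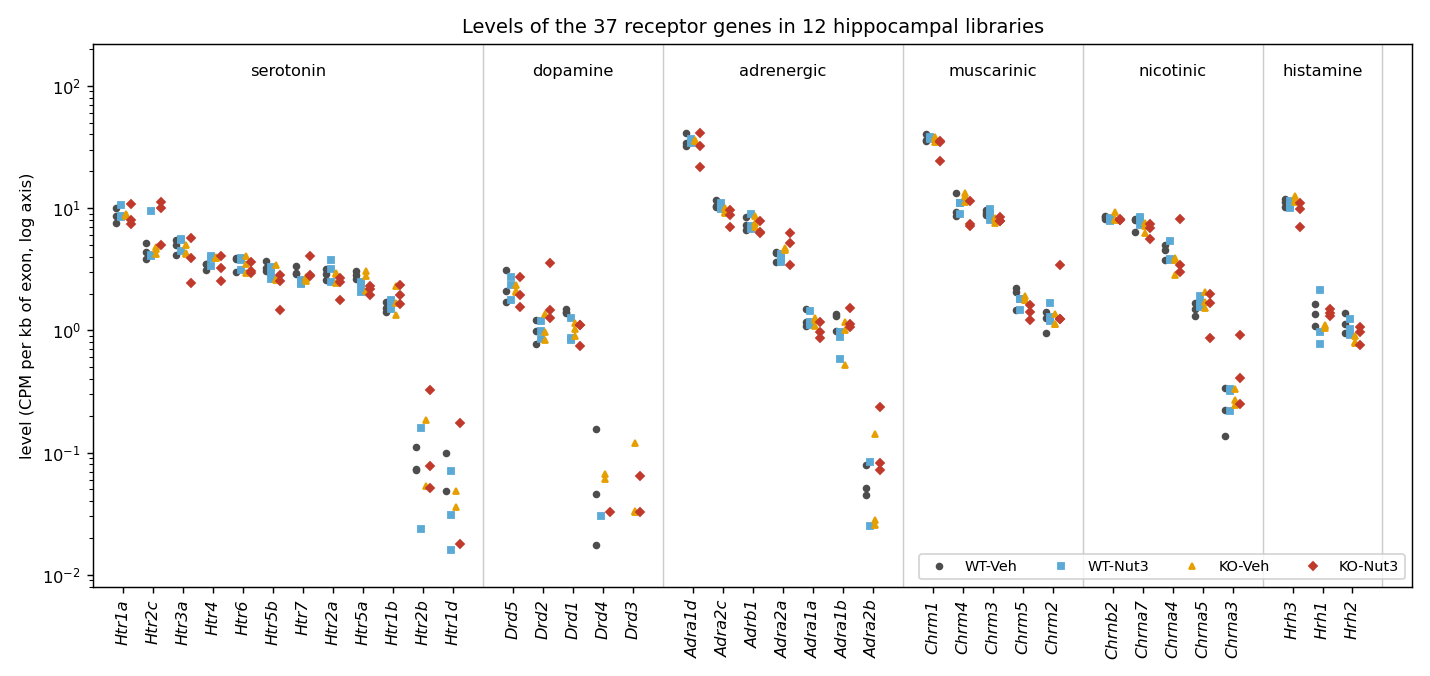
Level of each of the 37 receptor genes in each library (CPM per kb of merged exons, log axis), 1 point per library, coloured by group and set out by transmitter class, libraries with 0 reads not drawn. *Chrm1* and *Adra1d* stand highest with means of 35.8 and 34.5 CPM per kb, and *Htr2b*, *Htr1d*, *Drd4*, *Drd3* and *Adra2b* have 3 reads or fewer in at least 1 library.

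The 32 receptors with more than 3 reads in every library had a median coefficient of variation of 17.5% over the 12 libraries, and of 13.7% without KO-Nut3 RH6. The widest were *Chrna3* (59.4%), *Drd2* (57.3%), *Htr2c* (45.4%), *Chrm2* (44.996%) and *Chrna4* (33.03%). Without KO-Nut3 RH6 these were 26.8%, 21.04%, 40.5%, 14.8% and 19.5%. Of the 5, *Htr2c* kept most of its spread without that library.

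*Htr2c* encodes the serotonin 2C receptor, a Gq-coupled receptor of neurons that choroid plexus epithelium carries at very high level. The gene (ENSMUSG00000041380) lies on chromosome X from 146962513 to 147197277 on the plus strand in GRCm38. The 250 bases before its RefSeq start are shown because it was the most variable of the abundant receptors, with a match to the CCAAT box on the other strand in capitals (chrX:146962263-146962512, plus strand, GRCm38.p6).
Htr2c promoter: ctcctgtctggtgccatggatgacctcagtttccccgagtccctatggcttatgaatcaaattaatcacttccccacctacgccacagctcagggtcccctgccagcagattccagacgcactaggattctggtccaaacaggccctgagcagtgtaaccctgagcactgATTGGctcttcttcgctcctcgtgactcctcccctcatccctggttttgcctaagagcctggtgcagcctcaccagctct
*Htr2c* had 40.4, 48.1 and 35.8 CPM (WT-Veh), 38.7, 88.1 and 37.5 (WT-Nut3), 44.7, 42.8 and 39.1 (KO-Veh) and 105, 46.97 and 94.2 CPM (KO-Nut3). The 3 libraries with the most *Ttr*, WT-Nut3 RH9, KO-Nut3 RH6 and KO-Nut3 RH13, had 88.1 CPM or more and the other 9 at most 48.1 CPM, with a ratio of means of 2.30. KO-Nut3 RH8, with 314 CPM of *Ttr*, was within the range of the vehicle libraries. Between KO-Nut3 (81.97 ± 30.8 CPM, SD, n = 3) and KO-Veh (42.2 ± 2.80 CPM) the log2 fold change was 0.95 (SE 0.23, adjusted *P* = 0.217) in edgeR, where SE is the standard error, so *Htr2c* did not pass over all genes tested. It passed without KO-Nut3 RH8 (adjusted *P* = 8.79e-05 in edgeR), a fit in which 266 of all 22592 genes passed against 45 with that library. Over the alternatives run its adjusted *P* went from 3.71e-06 to 1. In a fit of all 12 libraries 0 of all 22592 genes passed between these groups, with or without the choroid plexus score (the mean log2 CPM of the 16 markers) as a term. With the score the log2 fold change of *Htr2c* was -0.18 (adjusted *P* = 1 in edgeR). In WT-Nut3 (54.8 ± 28.9 CPM, SD, n = 3) against WT-Veh (41.4 ± 6.22 CPM) it was 0.41 (SE 0.27, adjusted *P* = 0.998), and without WT-Nut3 RH9 it was -0.12. KO-Veh against WT-Veh gave 0.03 (SE 0.10, adjusted *P* = 0.973). The choroid plexus score was 4.79, 1.96 and 5.11 in KO-Nut3 and -0.464, -0.567 and 0.191 in KO-Veh. It thus ran with treatment in KO mice, and in the fit with the score the 2 cannot be told apart well. The part of choroid plexus tissue in the level of *Htr2c* was not tested.

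Of the other genes of these transmitters, *Slc29a4*, *Ppp1r1b* and, by a smaller margin, *Maob* were highest in WT-Nut3 RH9, KO-Nut3 RH6 and KO-Nut3 RH13. *Chrnb4* and *Tph1*, given below, were highest in KO-Nut3 RH8. *Slc29a4*, the plasma membrane monoamine transporter, which choroid plexus epithelium also carries, had 34.1, 30.05 and 32.04 CPM (WT-Veh), 29.9, 59.1 and 36.3 (WT-Nut3), 37.3, 33.5 and 32.5 (KO-Veh) and 46.1, 30.5 and 51.8 CPM (KO-Nut3). *Ppp1r1b* (DARPP-32, a phosphatase inhibitor downstream of dopamine and cyclic AMP) had 32.8, 32.5 and 24.8 CPM (WT-Veh), 36.7, 58.2 and 30.7 (WT-Nut3), 28.9, 24.6 and 22.7 (KO-Veh) and 48.4, 27.4 and 50.4 CPM (KO-Nut3). For *Slc29a4* and *Ppp1r1b*, WT-Nut3 RH9, KO-Nut3 RH6 and KO-Nut3 RH13 were above the other 9 libraries, with ratios of means of 1.59 and 1.80. *Maob*, one of the breakdown genes, had 26.3, 27.6 and 28.1 CPM in these libraries, in that order, and 18.1 to 24.8 CPM in the other 9. When the choroid plexus score was added to the fit of 12 libraries, KO-Nut3 against KO-Veh gave a log2 fold change of -0.44 for *Slc29a4* and -0.02 for *Ppp1r1b*. The part of choroid plexus tissue in these levels was not tested.

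**Figure D2:**
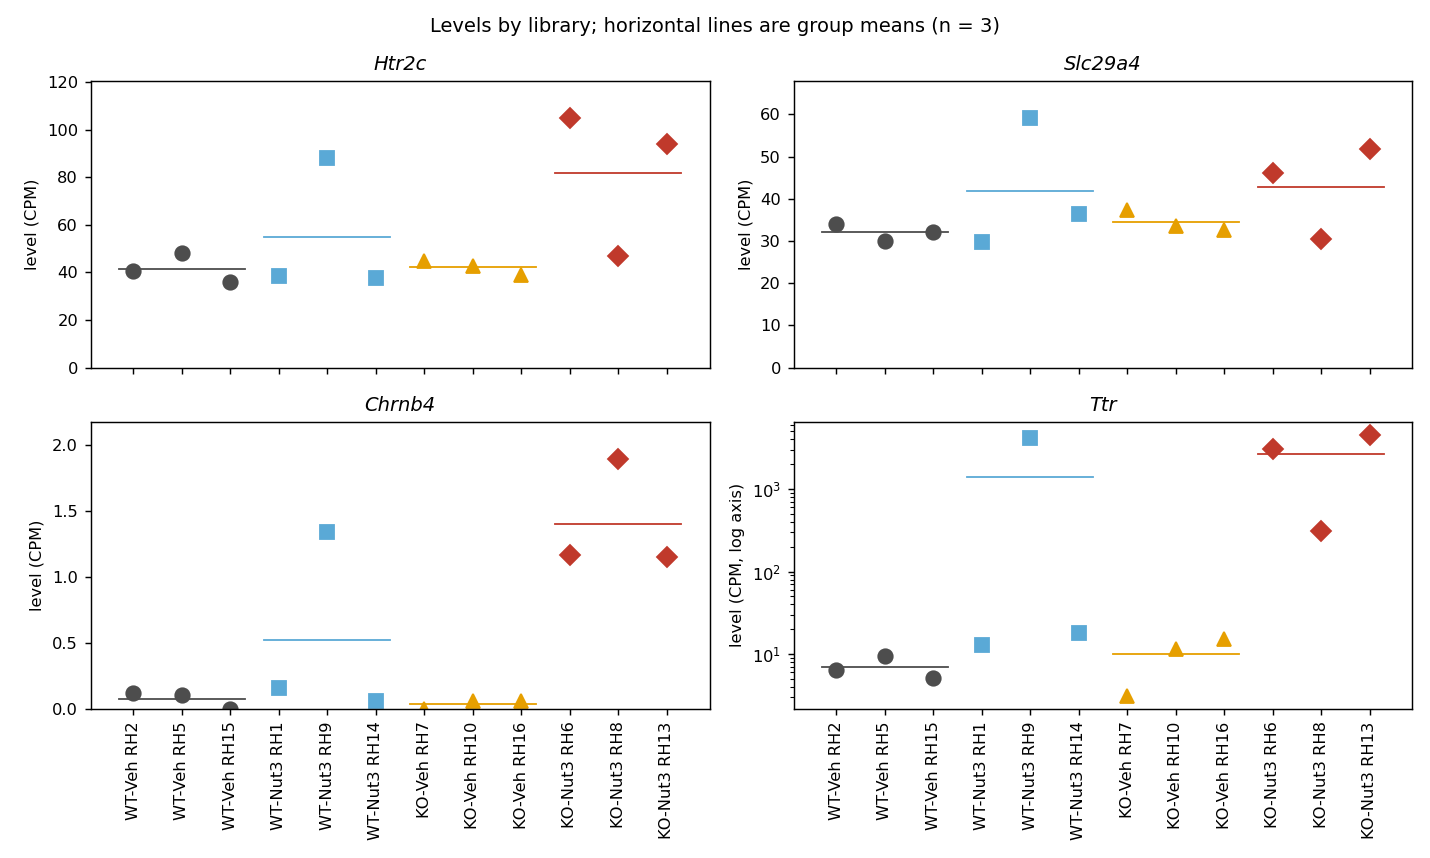
Levels of *Htr2c*, *Slc29a4*, *Chrnb4* (CPM) and *Ttr* (CPM, log axis) in each library, with lines at the group means (n = 3). *Htr2c* and *Slc29a4* are highest in WT-Nut3 RH9, KO-Nut3 RH6 and KO-Nut3 RH13, the 3 libraries with the most *Ttr*, while *Chrnb4* is highest in KO-Nut3 RH8.

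KO-Nut3 RH6 was above all other 11 libraries for 11 of 36 receptors, against 15.3% of all genes tested, and below all others for 13 of 36, against 14.9%. No other library was above all others for more than 5 or below all others for more than 4 receptors. The median absolute log2 deviation from the median of the other libraries, over the 32 receptors with more than 3 reads in every library, was 0.56 in KO-Nut3 RH6 and 0.10 to 0.23 in the others. The receptors above all others were *Htr2c*, *Htr7*, *Htr1b*, *Htr1d*, *Drd2*, *Adra1b*, *Adra2a*, *Adra2b*, *Chrm2*, *Chrna4* and *Chrna3*. Those below all others were *Chrm1*, *Chrm5*, *Adra1d*, *Adra2c*, *Hrh3*, *Htr2a*, *Htr3a*, *Htr4*, *Htr5a*, *Htr5b*, *Htr6*, *Chrna5* and *Chrna7*. The part of tissue from the neighbouring regions in these deviations was not tested.

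Of the 32 receptors with more than 3 reads in every library, those furthest above the median of the other 11 libraries were *Drd2* (3.55 times), *Chrna3* (3.39 times), *Chrm2* (2.74 times), *Htr2c* (2.45 times) and *Chrna4* (2.14 times). *Chrm2* had 5.79, 8.61 and 7.62 CPM (WT-Veh), 10.1, 7.25 and 7.79 (WT-Nut3), 6.76, 6.77 and 8.26 (KO-Veh) and 20.7, 7.56 and 7.52 CPM (KO-Nut3). *Drd2* had 1.97, 2.52 and 3.09 CPM (WT-Veh), 2.18, 2.53 and 3.03 (WT-Nut3), 2.48, 2.14 and 3.48 (KO-Veh) and 8.98, 3.72 and 3.24 CPM (KO-Nut3). *Chrna3* had 0.717, 1.79 and 1.18 CPM (WT-Veh), 1.67, 1.14 and 1.74 (WT-Nut3), 1.76, 1.30 and 1.42 (KO-Veh) and 4.82, 1.32 and 2.14 CPM (KO-Nut3). In these 3 genes KO-Nut3 RH6 was more than 2 times as high as any other library. Of the same 32, furthest below were *Htr3a* (0.486 times), *Htr5b* (0.494 times), *Chrna5* (0.517 times) and *Htr2a* (0.610 times). *Chrna5* and *Chrna3* are neighbours on chromosome 9, on opposite strands with 2331 bases between them, and deviated in opposite directions in this library.

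The 250 bases before the starts of *Chrm2* and *Chrna3*, which were among the receptors furthest above the rest in KO-Nut3 RH6, are shown with matches to the CCAAT box (CCAAT) or the GC box (GGGCGG) on either strand in capitals (GRCm38.p6, chr6:36387834-36388083 on the plus strand and chr9:55026563-55026812 on the minus strand).
Chrm2 promoter: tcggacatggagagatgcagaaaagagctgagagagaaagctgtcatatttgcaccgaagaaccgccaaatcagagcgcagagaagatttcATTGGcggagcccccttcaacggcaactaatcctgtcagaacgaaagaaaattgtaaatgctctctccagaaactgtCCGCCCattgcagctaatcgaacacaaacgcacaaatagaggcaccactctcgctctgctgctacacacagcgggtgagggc
Chrna3 promoter: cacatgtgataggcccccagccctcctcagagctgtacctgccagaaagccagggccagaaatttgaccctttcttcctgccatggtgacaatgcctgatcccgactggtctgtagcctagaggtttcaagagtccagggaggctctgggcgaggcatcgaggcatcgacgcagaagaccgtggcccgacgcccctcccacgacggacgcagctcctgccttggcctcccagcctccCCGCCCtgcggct
The RefSeq table held 40 starts for 31 of the 37 receptor genes, and no entry for *Chrm1*, *Adra1d*, *Adra1a*, *Htr3a*, *Htr4* and *Htr5b*. Of the 40 windows of 250 bases, 24 held a GC box, against 32.7% of all 32851 promoters in the table, 12 held a CCAAT box (33.8% of all) and 1 held a TATA box (TATAAA, 12.4% of all). The median GC content was 61% against 52.4% over all promoters. A half-site of p53, the factor that Nutlin-3 stabilizes, was matched in 3 of the 40 windows against 7.13% of all, and the RE1 half-site TTCAGCACC in 0 against 0.301%. All motifs were searched on both strands, and the matches describe the letters of the windows only.

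**Figure D3:**
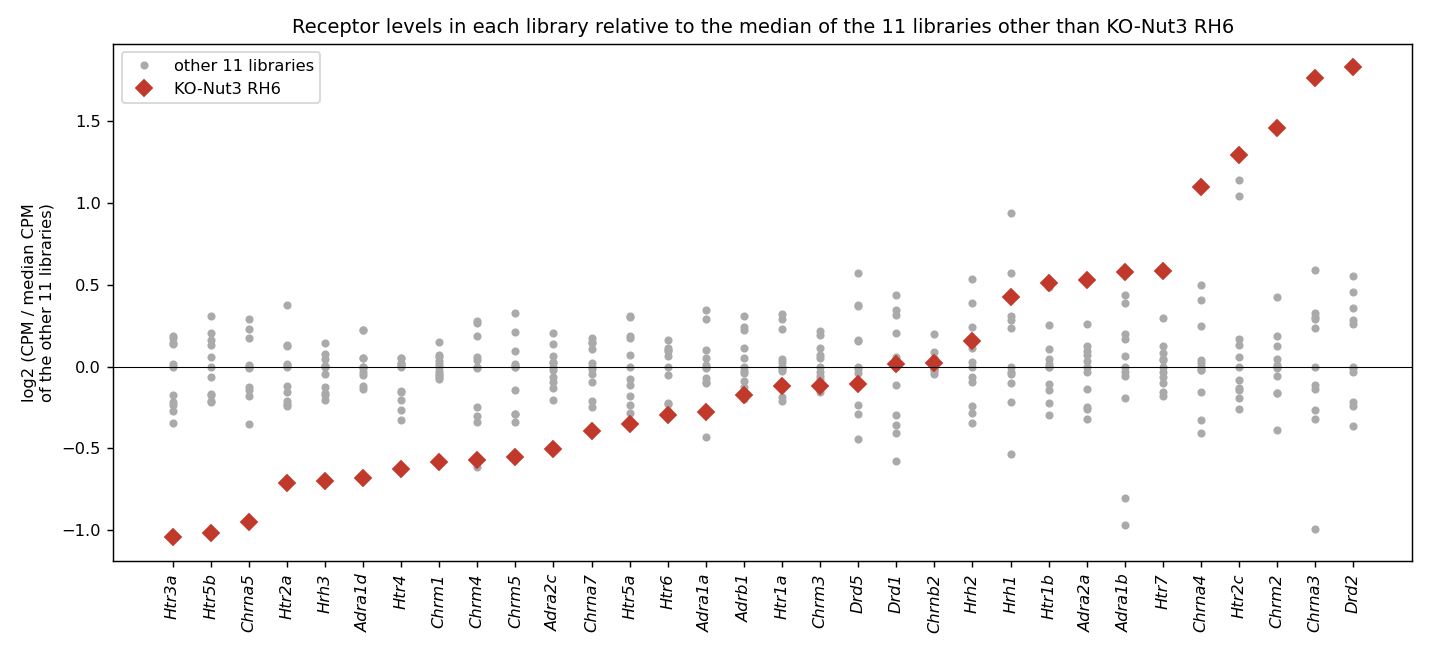
Level of each of the 32 receptors with more than 3 reads in every library, as log2 of the ratio to the median of the 11 libraries other than KO-Nut3 RH6, which is drawn as diamonds beside the other 11 in grey. KO-Nut3 RH6 lies outside the other 11 for most of these receptors, from *Htr3a* at 0.486 times to *Drd2* at 3.55 times their median.

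Each comparison was fitted over all 22592 genes with the quasi-likelihood test of edgeR, and an adjusted *P* (Benjamini-Hochberg) under 0.05 counted as past the threshold. The comparisons share groups and are therefore not independent of each other. In none of the 8 comparisons did any of the 36 receptors pass, in edgeR or in DESeq2.

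The effect of the knockout was compared under vehicle. Between KO-Veh and WT-Veh 0 of 36 receptors passed (0.0177% of all genes tested), and 6 had an unadjusted *P* under 0.05, against 7.20% of all genes. Of the 36, 24 had a log2 fold change below 0, against 51.0% of all genes, with a median of -0.07 beside 0.00 over all genes. The count with an unadjusted *P* under 0.05 was 3 with KO-Veh RH10 or KO-Veh RH16 left out (1095 to 1549 of all 22592 genes). In the fit of all 12 libraries it was 3 with the choroid plexus score (1209 of all genes) and also 3 without it (1262 of all genes). The smallest *P* belonged to *Chrm3*, with 60.3, 54.8 and 57.1 CPM in WT-Veh and 47.4, 51.6 and 50.7 in KO-Veh and a log2 fold change of -0.20 (SE 0.06, adjusted *P* = 0.610). *Hrh2* had 6.69, 8.19 and 5.67 CPM in WT-Veh and 4.65, 5.30 and 4.79 in KO-Veh, for -0.48 (SE 0.17, adjusted *P* = 0.631) on the log2 scale. *Drd1* had 5.43, 4.99 and 5.10 CPM in WT-Veh and 4.18, 3.27 and 3.70 in KO-Veh, for -0.47 (SE 0.17, adjusted *P* = 0.631). In these 3 genes every KO-Veh library was below every WT-Veh library. Without overlap, 5 receptors were lower in KO-Veh (6.46% of all genes), these 3 with *Adra2c* and *Htr7*, and 2 were higher (5.90% of all genes), *Htr4* and *Adra2a*. Medians of some cell-type markers also lay away from 0 in this comparison. The 8 ependyma markers had a median log2 fold change of 0.77, with 8 above 0. Medians were -0.59 for 10 markers of fibroblasts (9 below 0), -0.33 for 8 of mural cells and -0.24 for 8 of endothelium. Of these markers 0 passed, and their part in the receptor values was not tested.

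Under Nutlin-3, between KO-Nut3 and WT-Nut3, 0 of 36 passed (0.00443% of all genes) and 5 had an unadjusted *P* under 0.05 (4.87% of all genes), or 1 without KO-Nut3 RH6 (4.11% of all genes). Here 22 of 36 had a log2 fold change below 0 (48.9% of all genes). Of the 36, the number with an unadjusted *P* under 0.05 was 3 with WT-Nut3 RH1 or WT-Nut3 RH14 left out and 10 with KO-Nut3 RH8 or KO-Nut3 RH13 left out (684 to 1437 of all 22592 genes). In the fit of all 12 libraries it was 2 with the choroid plexus score (813 of all genes) and 6 without it (1456 of all genes). *Drd2* had 5.32 ± 3.19 CPM (SD, n = 3) in KO-Nut3 and 2.58 ± 0.426 CPM in WT-Nut3, for a log2 fold change of 1.04 (SE 0.38, adjusted *P* = 0.928) that was 0.43 without KO-Nut3 RH6. *Adra2c* had 37.99, 33.9 and 35.2 CPM in WT-Nut3 and 24.3, 33.1 and 29.98 in KO-Nut3, for -0.30 (SE 0.12, adjusted *P* = 0.928), or -0.18 without that library. *Htr2a* had 14.5, 17.7 and 16.2 CPM (WT-Veh), 13.998, 17.7 and 21.03 (WT-Nut3), 16.4, 13.7 and 16.3 (KO-Veh) and 9.87, 13.8 and 14.9 CPM (KO-Nut3), which gave -0.46 (SE 0.19, adjusted *P* = 0.928) between the Nutlin-3 groups, or -0.29 without KO-Nut3 RH6. The groups did not overlap for 3 receptors that were higher in KO-Nut3 (5.30% of all genes), *Htr7*, *Drd2* and *Adra1b*, and for 2 that were lower (5.35% of all genes), *Adra2c* and *Chrm1*.

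With treatments pooled, all KO against all WT libraries, 0 of 36 passed (0.00443% of all genes) and 7 had an unadjusted *P* under 0.05 (7.77% of all genes), or 4 without KO-Nut3 RH6 (1808 of all 22592 genes). The log2 fold change was below 0 for 22 of 36 (48.4% of all genes). The count with an unadjusted *P* under 0.05 was 3 with WT-Veh RH5 or KO-Veh RH16 left out, 4 with WT-Veh RH2 or WT-Nut3 RH14 left out and 12 with KO-Nut3 RH13 left out (1316 to 2032 of all 22592 genes), and 3 when the choroid plexus score entered the fit (1184 of all genes). *Adra2c*, an inhibitory receptor of noradrenergic terminals and neurons, had 39.8, 35.04 and 36.001 CPM (WT-Veh), 37.99, 33.9 and 35.2 (WT-Nut3), 34.5, 31.5 and 32.2 (KO-Veh) and 24.3, 33.1 and 29.98 CPM (KO-Nut3). Its log2 fold change was -0.23 (SE 0.07, adjusted *P* = 0.503), and -0.18 without KO-Nut3 RH6. *Chrm3* had 60.3, 54.8 and 57.1 CPM (WT-Veh), 55.5, 50.1 and 61.4 (WT-Nut3), 47.4, 51.6 and 50.7 (KO-Veh) and 48.7, 49.2 and 52.8 CPM (KO-Nut3), for -0.17 (SE 0.05, adjusted *P* = 0.503). *Hrh2* had 6.69, 8.19 and 5.67 CPM (WT-Veh), 6.14, 5.41 and 7.40 (WT-Nut3), 4.65, 5.30 and 4.79 (KO-Veh) and 6.32, 4.47 and 5.77 CPM (KO-Nut3), for -0.34 (SE 0.13, adjusted *P* = 0.562). In all 3 the KO and WT ranges overlapped over 6 libraries each. In 0 receptors were all KO libraries above all WT libraries (0.177% of all genes), and in 0 below them (0.359% of all genes).

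**Figure D4:**
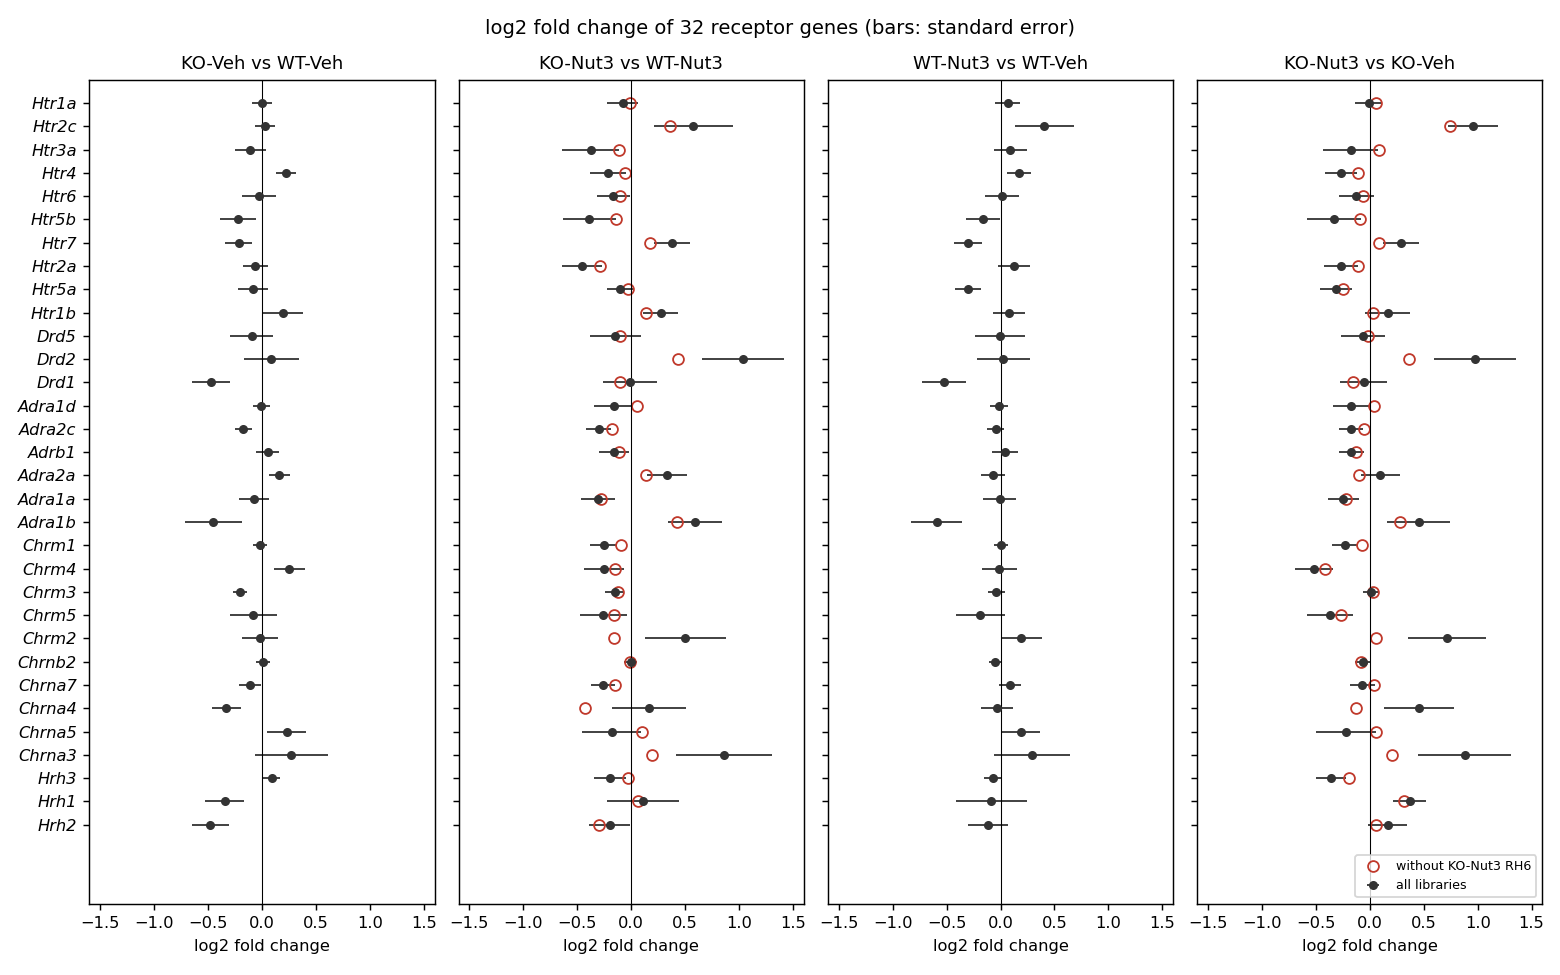
The log2 fold change of 32 receptors in 4 comparisons (points, with the standard error as bars) and, where KO-Nut3 is compared, without KO-Nut3 RH6 (open circles). *Drd2* goes from 0.98 to 0.37 and *Chrm2* from 0.72 to 0.05 between KO-Nut3 and KO-Veh without that library, *Htr2c* is at 0.74 without it, and no point passed the threshold.

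Nutlin-3 was compared with vehicle in WT mice. Between WT-Nut3 and WT-Veh 0 of 36 receptors passed (0.00% of all genes), 5 had an unadjusted *P* under 0.05 (3.17% of all genes) and 22 had a log2 fold change below 0 (49.9% of all genes). Of the 36, the number with an unadjusted *P* under 0.05 was 1 with WT-Veh RH5 or WT-Nut3 RH9 left out, 2 with WT-Nut3 RH14 left out and 3 with WT-Veh RH2 or WT-Veh RH15 left out (591 to 913 of all 22592 genes). With WT-Nut3 RH1 left out it was 7 (1158 of all genes). In the fit of all 12 libraries it was 1 with the choroid plexus score (527 of all genes) and 2 without it (708 of all genes). *Drd1* had 5.43, 4.99 and 5.10 CPM (WT-Veh), 4.62, 3.13 and 3.03 (WT-Nut3), 4.18, 3.27 and 3.70 (KO-Veh) and 4.05, 4.01 and 2.69 CPM (KO-Nut3), and its log2 fold change in WT mice was -0.52 (SE 0.20, adjusted *P* = 0.998). *Adra1b* had 3.34, 4.47 and 4.64 CPM (WT-Veh), 2.99, 3.28 and 1.96 (WT-Nut3), 3.92, 1.75 and 3.42 (KO-Veh) and 5.10, 3.84 and 3.57 CPM (KO-Nut3), for -0.59 (SE 0.24, adjusted *P* = 0.998) in WT mice. *Htr5a* had 16.4, 15.2 and 14.01 CPM (WT-Veh), 13.3, 10.98 and 12.7 (WT-Nut3), 16.5, 15.1 and 11.3 (KO-Veh) and 10.5, 11.8 and 12.4 CPM (KO-Nut3), for -0.30 (SE 0.12, adjusted *P* = 0.998). These 3 and *Htr7* were lower in every WT-Nut3 than in every WT-Veh library, 4 of 36 receptors against 3.92% of all genes, and 0 were higher without overlap (3.60% of all genes).

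In KO mice, between KO-Nut3 and KO-Veh, 0 of 36 receptors passed (0.199% of all genes) and 5 had an unadjusted *P* under 0.05 (7.60% of all genes). Without KO-Nut3 RH6 these were 2 of 36 (6.37% of all genes), *Htr2c* and *Chrm4*. The log2 fold change was below 0 for 21 of 36 (49.2% of all genes). The count with an unadjusted *P* under 0.05 was 1 with KO-Veh RH7 left out, 2 with KO-Veh RH10 left out, 9 with KO-Nut3 RH13 left out and 12 with KO-Nut3 RH8 left out (1056 to 2205 of all 22592 genes). In the fit of all 12 libraries it was 2 with the choroid plexus score (818 of all genes) and 6 without it (1994 of all genes). *Chrm4*, an inhibitory receptor of cholinergic terminals and principal neurons, had 12.5, 19.02 and 13.3 CPM (WT-Veh), 15.7, 15.8 and 12.8 (WT-Nut3), 19.2, 17.98 and 16.2 (KO-Veh) and 10.6, 16.4 and 10.3 CPM (KO-Nut3). KO-Nut3 RH8 was within the KO-Veh range and the other 2 KO-Nut3 libraries were below the remaining 10 libraries. Its log2 fold change was -0.52 (SE 0.18, adjusted *P* = 0.465), and it passed without KO-Nut3 RH8 (adjusted *P* = 0.0188 in edgeR). *Drd2* had 0.98 (SE 0.38, adjusted *P* = 0.581) on the log2 scale, and 0.37 without KO-Nut3 RH6. The groups did not overlap for 3 receptors that were higher in KO-Nut3 (7.85% of all genes), *Htr2c*, *Htr7* and *Hrh1*, and for 2 that were lower (5.44% of all genes), *Chrm5* and *Hrh3*. *Hrh1* had 4.84, 6.04 and 7.36 CPM (WT-Veh), 9.48, 4.27 and 3.42 (WT-Nut3), 4.80, 4.62 and 4.96 (KO-Veh) and 6.66, 5.84 and 6.15 CPM (KO-Nut3), and its highest and its lowest library were both in WT-Nut3.

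Treated KO mice were also set against vehicle-injected WT mice. Between KO-Nut3 and WT-Veh 0 of 36 receptors passed (0.00443% of all genes), and 8 had an unadjusted *P* under 0.05 (9.17% of all genes), or 7 without KO-Nut3 RH6 (8.53% of all genes). The log2 fold change was below 0 for 22 of 36 (47.6% of all genes). Of the 36, the number with an unadjusted *P* under 0.05 was 4 with WT-Veh RH2 left out, 5 with WT-Veh RH5 or WT-Veh RH15 left out and 14 with KO-Nut3 RH13 left out (1314 to 2148 of all 22592 genes). In the fit of all 12 libraries it was 1 with the choroid plexus score (753 of all genes) and 10 without it (2570 of all genes). *Htr2c* had the smallest *P*, with 0.99 (SE 0.25, adjusted *P* = 0.258) on the log2 scale. *Htr5a*, for which every KO-Nut3 library was below every WT-Veh library, had -0.39 (SE 0.12, adjusted *P* = 0.355). *Adra2c* had -0.34 (SE 0.12, adjusted *P* = 0.412), and -0.23 without KO-Nut3 RH6. Without overlap, 6 receptors were lower (7.09% of all genes), *Htr5a*, *Htr5b*, *Drd1*, *Adra2c*, *Chrm1* and *Chrm3*, and 1, *Drd2*, was higher (7.92% of all genes).

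The difference of the Nutlin-3 effect between the genotypes was fitted as an interaction over the 12 libraries. Here 0 of 36 passed (0.00% of all genes), 3 had an unadjusted *P* under 0.05 (4.17% of all genes), or 1 without KO-Nut3 RH6 (3.38% of all genes), and 19 were below 0 (48.7% of all genes). The count with an unadjusted *P* under 0.05 was 6 with WT-Nut3 RH1 or KO-Nut3 RH8 left out and 8 with KO-Nut3 RH13 left out (1100 to 1275 of all 22592 genes), and 2 when the choroid plexus score entered the fit (862 of all genes). *Htr7*, a Gs-coupled receptor that raises the excitability of pyramidal neurons, had 9.79, 11.3 and 10.1 CPM (WT-Veh), 8.82, 8.15 and 8.30 (WT-Nut3), 9.24, 9.02 and 8.60 (KO-Veh) and 13.9, 9.51 and 9.56 CPM (KO-Nut3). All WT-Nut3 libraries were below those of WT-Veh and all KO-Nut3 libraries above those of KO-Veh. The interaction was 0.60 (SE 0.21, adjusted *P* = 0.994) on the log2 scale, and 0.39 without KO-Nut3 RH6. *Adra1b* had an interaction of 1.05 (SE 0.40, adjusted *P* = 0.994). *Htr4* (Gs) had 17.2, 17.2 and 15.2 CPM (WT-Veh), 16.6, 19.8 and 19.3 (WT-Nut3), 19.4, 19.3 and 19.1 (KO-Veh) and 12.4, 19.9 and 15.9 CPM (KO-Nut3), for -0.43 (SE 0.19, adjusted *P* = 0.994). Its lowest library was KO-Nut3 RH6, without which the interaction was -0.28.

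For all Nutlin-3 against all vehicle libraries 0 of 36 passed (0.00% of all genes), and 4 had an unadjusted *P* under 0.05 (7.17% of all genes), also 4 without KO-Nut3 RH6 (5.99% of all genes). The log2 fold change was below 0 for 22 of 36 (11307 of all 22592 genes), and the groups separated without overlap in 0 receptors upward (0.150% of all genes) and 0 downward (0.0930% of all genes). Of the 36, the number with an unadjusted *P* under 0.05 was 2 with KO-Veh RH7 or WT-Nut3 RH14 left out, 7 with KO-Nut3 RH13 left out and 8 with KO-Nut3 RH8 left out (1376 to 2027 of all 22592 genes), and 0 when the choroid plexus score entered the fit (665 of all genes). The smallest *P* belonged to *Htr2c* with 0.68 (SE 0.21, adjusted *P* = 0.398), *Htr5a* with -0.31 (SE 0.10, adjusted *P* = 0.415) and *Hrh3* with -0.21 (SE 0.09, adjusted *P* = 0.647) on the log2 scale, the last being -0.13 without KO-Nut3 RH6.

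**Figure D5:**
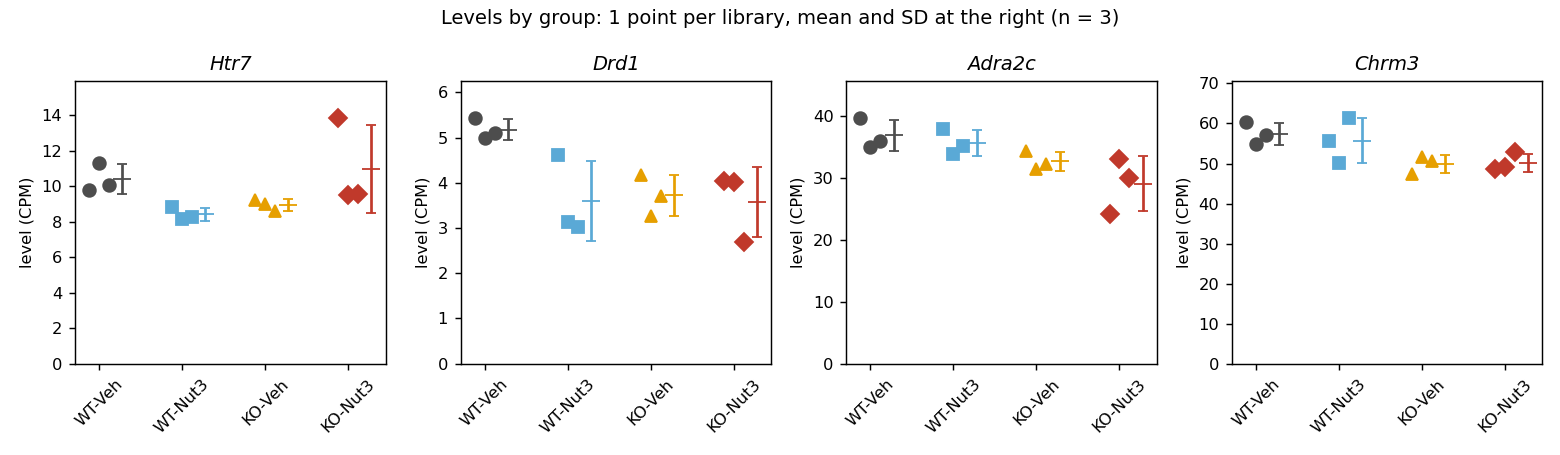
Levels of *Htr7*, *Drd1*, *Adra2c* and *Chrm3* by group (CPM), 1 point per library with the group mean and SD (n = 3). *Htr7* in KO-Nut3 RH6 stands at 13.9 CPM above the other 11 libraries, and the KO libraries of *Adra2c* and *Chrm3* lie below the WT-Veh means.

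Levels were also summed over classes of receptors, as a description with no test. The 7 Gs-coupled receptors summed to 79.8 ± 8.01 CPM (WT-Veh), 78.3 ± 2.57 (WT-Nut3), 77.9 ± 4.48 (KO-Veh) and 73.4 ± 2.72 CPM (KO-Nut3), mean ± SD with n = 3 each. In the same order, the 14 Gi-coupled receptors summed to 185 ± 7.17, 181 ± 3.02, 188 ± 3.25 and 177 ± 1.93 CPM. The Gi sums of KO-Nut3, 178, 175 and 178 CPM, were all below those of KO-Veh, 192, 185 and 187 CPM, and overlapped those of both WT groups. The 10 Gq-coupled receptors, of which *Chrm1* was the most abundant, summed to 449 ± 24.9, 459.8 ± 16.5, 435 ± 12.5 and 431 ± 51.8 CPM, with the largest SD in KO-Nut3. The 6 channel subunits summed to 142 ± 9.02, 143 ± 3.34, 136 ± 10.4 and 138 ± 8.76 CPM. By transmitter, the 12 serotonin receptors summed to 214, 164 and 230.4 CPM in KO-Nut3, to 216 CPM in WT-Nut3 RH9 and to 162 to 179 CPM in the other 8 libraries. Without *Htr2c* the other 11 serotonin receptors summed to 109 CPM in KO-Nut3 RH6, the lowest of the 12 libraries, and to 117 to 141 CPM in the rest. The 5 muscarinic receptors summed to 240.4, 305 and 298 CPM in KO-Nut3 and 316, 329 and 305 CPM in KO-Veh. KO-Nut3 RH6 had the lowest muscarinic, adrenergic and histamine sums and the highest dopamine and nicotinic sums of the 12 libraries.

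Other receptor genes of the same families formed a list of 17 relatives, of which 10 had enough reads. In edgeR *Chrnb4* alone of these passed the threshold, in KO-Nut3 against KO-Veh (0.199% of all genes). In DESeq2 it alone passed, in the same comparison (1.08% of all genes), in KO-Nut3 against WT-Veh (adjusted *P* = 0.000947, with 0.965% of all genes past the threshold) and in all Nutlin-3 against all vehicle libraries (adjusted *P* = 0.00246, with 0.359% of all genes). It encodes the beta4 nicotinic subunit, which joins alpha3 in autonomic ganglia and the medial habenula, and lies beside *Chrna3* on chromosome 9. Its promoter window (chr9:55048545-55048794, minus strand, GRCm38.p6, 250 bases before the RefSeq start) is shown because no other gene of the receptor and pathway lists passed in edgeR, with its p53 half-site match, found on both strands at the same place, in capitals.
Chrnb4 promoter: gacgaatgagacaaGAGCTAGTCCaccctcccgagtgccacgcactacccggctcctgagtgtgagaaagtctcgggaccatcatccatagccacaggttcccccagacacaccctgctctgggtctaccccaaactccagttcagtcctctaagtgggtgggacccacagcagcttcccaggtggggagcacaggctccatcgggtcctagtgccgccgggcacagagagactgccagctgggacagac
*Chrnb4* had 2, 2 and 0 reads (WT-Veh), 3, 27 and 1 (WT-Nut3), 0, 1 and 1 (KO-Veh) and 21, 33 and 21 reads (KO-Nut3). KO-Veh was under the floor, taken per library, and KO-Nut3 (1.40 ± 0.422 CPM, SD, n = 3) was at least 8.21-fold higher (adjusted *P* = 0.0161 in edgeR, 0.00105 in DESeq2, from 1.66e-06 to 1 over the alternatives). It passed in the 3 fits that left out 1 KO-Nut3 library (adjusted *P* = 0.0104 without RH6, 0.0120 without RH8 and 0.0359 without RH13, in edgeR) and in none that left out 1 KO-Veh library (adjusted *P* = 0.112 without RH7, 0.152 without RH10 and 0.101 without RH16). It did not pass when a term for the number block (low RH numbers, ending at RH8, against higher ones) was added (adjusted *P* = 0.0581 in edgeR), where 20 of all 22592 genes passed. Nor did it pass in the fit of all 12 libraries without an added term, in which 0 of all 22592 genes passed. The 4 libraries with more than 20 reads were those with raised *Ttr*, and the highest, KO-Nut3 RH8, had the least *Ttr* of these. The 10 markers of fibroblasts of meninges and stroma, led by *Ptgds*, summed to 219, 1224 and 452 CPM (WT-Veh), 345, 532 and 215 (WT-Nut3), 393, 351 and 360.2 (KO-Veh) and 1014, 1962 and 519.5 CPM (KO-Nut3), highest in KO-Nut3 RH8. Between KO-Nut3 and KO-Veh their median log2 fold change was 1.38, beside 0.00 over all genes. When the choroid plexus score entered the fit of 12 libraries, the log2 fold change of *Chrnb4* between KO-Nut3 and KO-Veh was 3.71 (adjusted *P* = 1 in edgeR). In that fit, too, 0 of all 22592 genes passed. The part of fibroblasts in the level of *Chrnb4* was not tested.

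*Chrna6* and *Chrnb3*, nicotinic subunits of catecholamine neurons and of the habenula, had 73 and 87 reads in KO-Nut3 RH6 and at most 4 and 12 in any other library, and *Chrna6* passed the filter on reads through KO-Nut3 RH6 alone. The other relatives with the smallest *P* did not pass. *Chrnb1*, the muscle beta1 subunit, had 0.60 (SE 0.21, adjusted *P* = 0.480) between KO-Nut3 and KO-Veh. *Htr1f* and *Adrb3* had -0.73 (SE 0.26, adjusted *P* = 0.631) and -0.81 (SE 0.32, adjusted *P* = 0.653) between KO-Veh and WT-Veh. *Chrna1*, the muscle alpha1 subunit, had -0.59 (SE 0.19, adjusted *P* = 0.509) between all KO and all WT libraries.

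The genes that make, move and break down the transmitters numbered 24, of which 20 were tested, and 0 passed in edgeR in the 8 comparisons, beside 2 in DESeq2, *Tph1* and *Bche* between KO-Nut3 and KO-Veh (in DESeq2 1.08% of all genes). Between KO-Nut3 and KO-Veh 2 of the 20 had an unadjusted *P* under 0.05 (7.60% of all genes). *Bche*, butyrylcholinesterase, had 7.40, 8.14 and 7.31 CPM (WT-Veh), 8.32, 5.96 and 4.54 (WT-Nut3), 4.49, 3.83 and 4.84 (KO-Veh) and 9.59, 9.11 and 5.88 CPM (KO-Nut3). Its log2 fold change was -0.79 (SE 0.16, adjusted *P* = 0.313) between KO-Veh and WT-Veh and 0.90 (SE 0.21, adjusted *P* = 0.191) between KO-Nut3 and KO-Veh, comparisons that share KO-Veh. In the latter the adjusted *P* of *Bche* was 0.0230 in DESeq2 and went from 0.00628 to 1 over the alternatives, and with the choroid plexus score in the fit its log2 fold change was 1.08 (adjusted *P* = 1 in edgeR). *Tph1*, a tryptophan hydroxylase abundant in the pineal gland, had 75 reads in KO-Nut3 RH8, 15 in KO-Nut3 RH13, 10 in KO-Nut3 RH6 and at most 8 in any other library. Between KO-Nut3 and KO-Veh this gave 3.31 (SE 0.86, adjusted *P* = 0.255), with an adjusted *P* of 0.00535 in DESeq2. Without KO-Nut3 RH8 the log2 fold change of *Tph1* was 1.86 (adjusted *P* = 0.328 in edgeR), and with the choroid plexus score in the fit it was 4.87 (adjusted *P* = 0.364 in edgeR). KO-Nut3 RH8 was also highest in the sum of the fibroblast markers, whose part in the levels of *Tph1* and *Bche* was not tested. *Hdc*, which makes histamine, had 1.13, 1.58 and 1.55 CPM (WT-Veh), 1.83, 1.99 and 2.24 (WT-Nut3), 2.17, 1.35 and 2.39 (KO-Veh) and 2.50, 2.12 and 3.35 CPM (KO-Nut3), for 0.90 (SE 0.27, adjusted *P* = 0.355) between KO-Nut3 and WT-Veh. *Slc22a2*, an organic cation transporter, had 0 to 27 reads in a library. *Ddc*, which makes dopamine and serotonin from their precursors, had 0.41 (SE 0.18, adjusted *P* = 0.673) between KO-Veh and WT-Veh, and *Gch1*, which makes the cofactor of their synthesis, 0.42 (SE 0.18, adjusted *P* = 0.597) between all KO and all WT libraries.

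Of the 36 G proteins and effectors, all tested, 0 passed in edgeR and 1, *Ppp1r1b*, in DESeq2 in any comparison, between KO-Nut3 and KO-Veh (1.08% of all genes in DESeq2), and 2 had an unadjusted *P* under 0.05 between KO-Nut3 and KO-Veh (7.60% of all genes). There *Ppp1r1b* had 0.72 (SE 0.20, adjusted *P* = 0.296), with an adjusted *P* of 0.0124 in DESeq2 and from 0.000286 to 1 over the alternatives. Between KO-Nut3 and WT-Veh 5 of the 36 had an unadjusted *P* under 0.05 (9.17% of all genes), or 4 without KO-Nut3 RH6 (8.53% of all genes). Without KO-Nut3 RH8 *Ppp1r1b* passed in edgeR as well (adjusted *P* = 0.00216). *Plcb4*, a phospholipase C of Gq signaling that prevails in thalamus, had 109 CPM in KO-Nut3 RH6 and 19.5 to 30.7 CPM in the other libraries. Its log2 fold change between KO-Nut3 and KO-Veh was 1.22 with and 0.27 without KO-Nut3 RH6. *Adcy5*, an adenylyl cyclase, had -0.18 (SE 0.06, adjusted *P* = 0.610) between KO-Veh and WT-Veh. The potassium channel genes *Kcnj9*, *Kcnj6* and *Kcnj3*, whose channels Gi-coupled receptors open, were each among the 2 smallest *P* of the list in 1 comparison. *Kcnj9* had -0.19 (SE 0.06, adjusted *P* = 0.387) between KO-Nut3 and WT-Veh on the log2 scale. *Kcnj6* had -0.26 (SE 0.12, adjusted *P* = 0.928) between KO-Nut3 and WT-Nut3, or -0.14 without KO-Nut3 RH6, and *Kcnj3* had an interaction of -0.14 (SE 0.09, adjusted *P* = 0.994), or -0.08 without that library.

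Of the 20 receptor regulators and chaperones, all tested, 0 passed in edgeR and 0 in DESeq2 in any comparison, and 3 had an unadjusted *P* under 0.05 between KO-Nut3 and KO-Veh (7.60% of all genes). Between KO-Nut3 and WT-Veh these were 6 of 20 (9.17% of all genes), or 5 without KO-Nut3 RH6 (8.53% of all genes). *Grk3*, a receptor kinase that ends signaling, had 157, 180.4 and 179 CPM (WT-Veh), 157, 156 and 151 (WT-Nut3), 177, 161 and 159 (KO-Veh) and 132, 152 and 145 CPM (KO-Nut3). Between all Nutlin-3 and all vehicle libraries this gave -0.18 (SE 0.05, adjusted *P* = 0.301). *Grk2*, of the same family, had 229, 224 and 230.1 CPM (WT-Veh), 229, 207 and 222 (WT-Nut3), 219, 217 and 200.5 (KO-Veh) and 202, 199 and 194 CPM (KO-Nut3), for -0.12 (SE 0.04, adjusted *P* = 0.503) between all KO and all WT libraries. *Rgs10*, a regulator that shortens Gi signaling, had 0.30 (SE 0.08, adjusted *P* = 0.503) in the same comparison. *Ly6h* and *Lynx1*, which restrain nicotinic receptors, had -0.17 (SE 0.06, adjusted *P* = 0.423) between all Nutlin-3 and all vehicle libraries and -0.15 (SE 0.06, adjusted *P* = 0.653) between KO-Veh and WT-Veh. *Grk6* had -0.11 (SE 0.05, adjusted *P* = 0.998) between WT-Nut3 and WT-Veh, and *Rgs14* had an interaction of -0.31 (SE 0.19, adjusted *P* = 0.994), or -0.14 without KO-Nut3 RH6. *Rgs16* had an interaction of 0.58 (SE 0.38, adjusted *P* = 0.994), or 0.33 without that library.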

How the data were processed

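The authors mapped the reads to mm10 with STAR and deposited raw counts of reads per gene for each of the 12 libraries, not normalized. Rows that name no gene held 21.2% to 22.6% of the reads and stayed out. Both strands were counted together, since the first strand held 50.1% to 50.4% of the reads. In a table covering the series, 12 columns with these same counts were not used. Labels and methods differ on single or paired reads. Groups came from the labels.

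Counts were scaled by TMM in edgeR 4.0.16 (R 4.3.3). Genes with more than 20 counts (22592) entered the quasi-likelihood test, with pairs of groups fitted on 6 libraries and the interaction and pooled contrasts on 12. Alternatives were DESeq2 1.42.0, its size factors, filterByExpr, every gene with at least 1 count, 1 fit of 12 libraries, terms for the number block or for choroid plexus, and omission of each library. Values by library are given for the 3 receptors with the smallest *P* per comparison and for the highest and the most variable of each transmitter class. Of the other lists, genes past the threshold or among the 2 smallest *P* per comparison are named, and any others were named after their values were seen. Receptors, lists and markers were chosen with earlier results of these data known. Promoters are from RefSeq (GRCm38.p6).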

Additional observations from a re-analysis of the deposited data

Results flagged for a closer look

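*Htr7* was singled out because it moved in opposite directions with treatment in the 2 genotypes. All KO-Nut3 libraries were above those of KO-Veh, and all WT-Nut3 libraries were below those of WT-Veh. The KO libraries likewise lay below the WT libraries under vehicle and above them under Nutlin-3. In either reading the difference of the effects of *Htr7* is the interaction, 0.599 on the log2 scale (SE 0.207, adjusted *P* = 0.994 in edgeR, 0.542 to 1 over the alternatives), which did not pass over all genes tested. Without KO-Nut3 RH6, in which thalamus markers were raised, it was 0.39, and over the 12 fits without 1 library it went from 0.39 to 0.69.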

How the results depend on the processing

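No receptor passed the threshold in any of the 8 comparisons in the fits as reported, nor with DESeq2, DESeq2 size factors, filterByExpr, all 12 libraries in one fit, the number block or the choroid plexus score. Over all genes, KO-Nut3 vs KO-Veh had 45 calls with DESeq2 size factors, 34 of 16923 with filterByExpr and 20 with the number block. The fit of all 12 libraries had 0 there with or without the score, so that 0 receptors in it is no result about the receptors. With every gene that had at least 1 count, the receptors past the threshold numbered 1 in KO-Nut3 vs KO-Veh, 1 in WT-Nut3 vs WT-Veh, 1 in KO-Nut3 vs WT-Veh, 1 in the interaction and 1 in all KO vs all WT, each time *Htr2c*, and 2 in all Nut3 vs all Veh, *Htr2c* and *Chrm2*. That setting also raised the calls over all genes (35930 in place of 22592 tested) in these 6 comparisons, in the same order, from 45 to 544, 0 to 249, 1 to 416, 0 to 291, 1 to 368 and 0 to 659, and the cause was not tested. Leaving out 1 library gave 0 to 2 receptors in KO-Nut3 vs KO-Veh and 0 to 1 in KO-Nut3 vs WT-Veh, and 0 in the other comparisons. The calls came without KO-Nut3 RH8, where *Htr2c* had an adjusted *P* of 8.79e-05 and *Chrm4* of 0.0188 in edgeR, and calls over all genes went from 45 to 266 in KO-Nut3 vs KO-Veh and from 1 to 197 in KO-Nut3 vs WT-Veh. Over all genes DESeq2 called 244 against 45 in edgeR in KO-Nut3 vs KO-Veh, 27 against 4 in KO-Veh vs WT-Veh, 0 against 0 in WT-Nut3 vs WT-Veh, 218 against 1 in KO-Nut3 vs WT-Veh, 7 against 1 in KO-Nut3 vs WT-Nut3, 1 against 0 in the interaction, 39 against 1 in all KO vs all WT and 81 against 0 in all Nut3 vs all Veh. Of 4252 receptor values over all settings, 315 changed sign without a call and none of the 10 past the threshold had the other sign. With the longest transcript as length, 9 of 36 levels per kb moved by more than 1 SD. No paired analysis was possible because the groups share no replicate numbers. *Drd3*, *Drd4*, *Htr1d*, *Htr2b* and *Adra2b* had 3 reads or fewer in at least 1 library, and depth limits their values there.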
